A study of Equus caballus with 14 samples.

Results

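Polysaccharide storage myopathy (PSSM) is a glycogen storage disease of horses in which muscle fibers hold aggregates of an abnormal polysaccharide that amylase does not digest. Here, PSSM muscles with a high share of aggregate-containing fibers were set against PSSM muscles with a low share. The high group held the 3 horses with aggregates in more than 10% of fibers (horses 12, 32 and 44) and the low group the 3 horses under that limit (horses 38, 42 and 54), so that 6 of the 7 PSSM horses and 12 of the 14 microarrays of the series entered the comparison. Horse 5 had no value for the share and was left out. Horse 44 lay just above the limit and horse 42 just below it, and the histological grade of the study put horse 42 in grade 2 with the 3 horses of the high group. The groups were formed from the histology of the biopsies, which is independent of the expression values.

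All 6 were adult Norman Cob horses, a draft breed, sampled in the gluteus medius, a hip muscle used for propulsion, and all carried the GYS1 mutation. In the high group, horses 12 and 32 were heterozygous (GA) males of 17 and 6 years, and horse 44 was a homozygous (AA) female of 17 years. In the low group, horse 38 was a GA male of 12 years, and horses 42 and 54 were GA females of 9 and 4 years. Sex and age were therefore not balanced between the groups, and the one homozygous horse was in the high group. Each PSSM muscle was hybridized on 2 microarrays, with the dyes swapped, against 1 pool of RNA from the muscles of 6 control horses. The pool was the same on every microarray and cancels from a difference between the groups. A horse's value was the mean log2 ratio of PSSM muscle to control pool over its 2 microarrays, and the measure of the comparison was the mean of the high group minus the mean of the low group on this log2 scale.

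Glycogen is built from UDP-glucose by glycogen synthase, which the GYS1 gene encodes in muscle, with a branching enzyme. It is broken down by glycogen phosphorylase, which phosphorylase kinase switches on, and the sugar then enters glycolysis or, through pyruvate, the mitochondria. In PSSM the GYS1 mutation makes glycogen synthase more active, and affected muscle can also show necrosis, regeneration and infiltration by inflammatory cells. In whole muscle, fewer cells of a type and less RNA per cell cannot be told apart.

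The microarray carried 384 equine probes, 50 for the mitochondrial and 334 for the nuclear genome, and 24109 mouse probes read across species, of which 13430 had a single gene symbol. A probe was tested where both groups had at least 2 horses with both microarrays, which left 334 equine probes (299 with all 6 horses) and 8323 mouse probes (5908 with all 6 horses). The number of equine probes with a value ran from 345 to 376 per microarray in the high group and from 321 to 375 in the low group. For the mouse probes it ran from 9672 to 15995 in the high group and from 7351 to 16696 in the low group. The 2 microarrays of a horse correlated over the equine probes at 0.63 in horse 44, but at -0.01 in horse 12 and at -0.22 in horse 32, against 0.53, 0.48 and 0.33 in horses 38, 42 and 54. Over the mouse probes the pairs correlated at 0.31, 0.09 and -0.12 in horses 44, 12 and 32. In horses 38, 42 and 54 they correlated at 0.38, 0.18 and 0.07. The Cy5 microarray of horse 54 had 811 mouse values at the end of the range of the deposited values. The next highest count among these horses was 219, on the Cy5 microarray of horse 12. Key differences are also given without horses 12 and 32, which sets horse 44 alone against the low group and keeps horse 54. A ratio to the pool gives no expression level, so the labelled tissue could not be checked against the levels of muscle genes.

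No equine and no mouse probe passed an adjusted p of 0.05 over the 6 horses (limma, Benjamini-Hochberg over the probes of each set), and the lowest adjusted p was 0.098 for the equine and 0.073 for the mouse probes. Among the equine probes, 22 (6.59%) were higher and 12 (3.59%) lower in the high group at an unadjusted p under 0.05, and all 3 high horses lay above all 3 low horses for 30 probes (10% of 299) and below them for 20 (6.69%). Among the mouse probes, 347 (4.17%) were higher and 316 (3.8%) lower at that p, with 382 (6.47% of 5908) and 413 (6.99%) probes whose groups did not overlap in the one and the other direction. The median difference was 0.10 over all equine probes and 0.00 over all mouse probes, and 62.6% of equine and 50.5% of mouse probes were above 0 (37.4% and 49.5% below). For a single probe, an exact permutation test of 3 horses against 3 cannot go below a two-sided p of 0.1. The 12 microarrays can also be fitted singly, with the replicate number of the labels, which stands for the dye orientation, as a block and the horse as a random block, a fit that also takes in horses with a value on 1 microarray. It called 2 equine probes higher in the high group (0.599%) and 55 mouse probes higher (0.661%) and 5 lower (0.0601%). Differences below are values that did not pass over the 6 horses, and those that passed in the fit with the replicate block are named as such. The p-values over the 6 horses measure the spread among 3 horses in each group. Those with the replicate block come from the 12 microarrays, 2 per horse, with 1 assumed correlation between the microarrays of a horse. They therefore do not measure the spread among horses alone. The gene lists below and their members were chosen with earlier results of these data known. Counts of a list set beside all probes are therefore descriptions and carry no test.

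**Figure D1:**
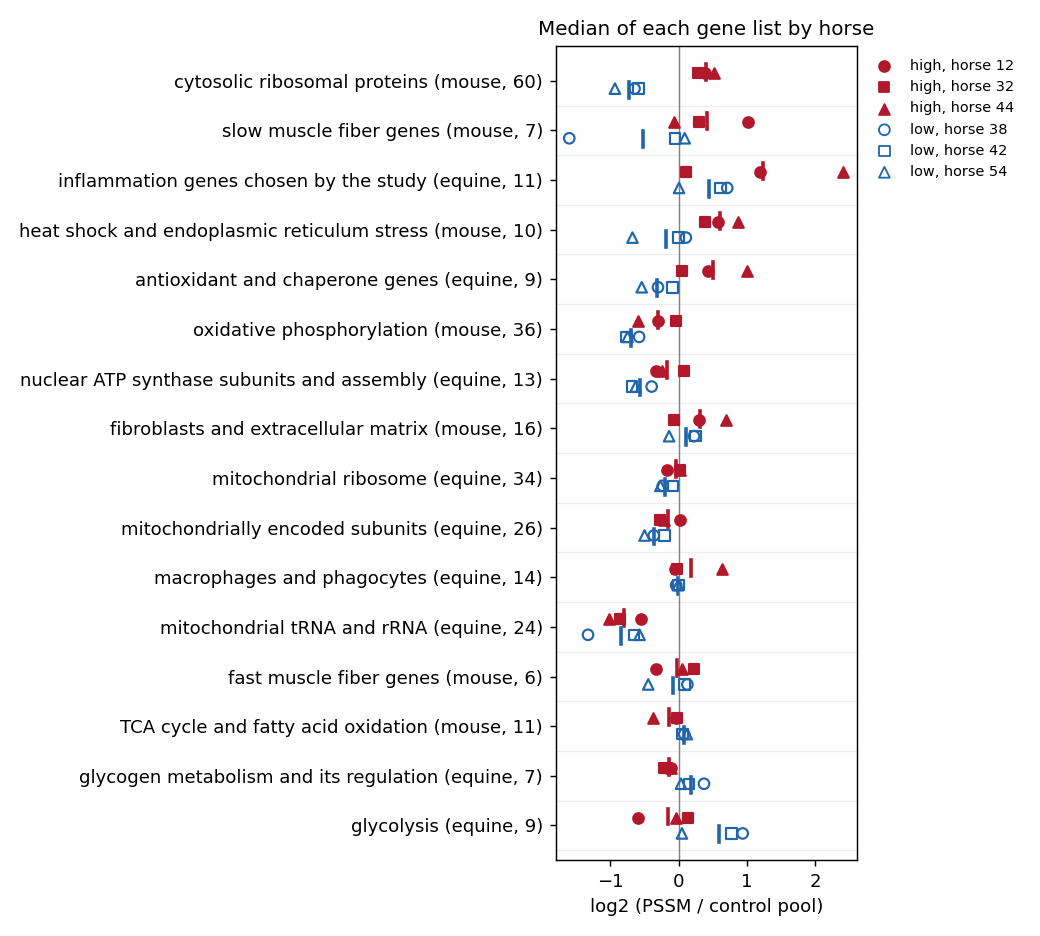
Median log2 ratio of PSSM muscle to control pool of each gene list (rows, with the probe set and the number of probes tested) in each horse. Filled red symbols are the 3 horses with a high share of aggregate-containing fibers, open blue symbols the 3 with a low share, and vertical ticks the mean of each group's 3 medians. The cytosolic ribosomal proteins are at 0.38, 0.29 and 0.53 in the high horses and at -0.64, -0.59 and -0.93 in the low horses, while the glycolysis list at the bottom is lower in the high group, at -0.59, 0.14 and -0.03 against 0.94, 0.77 and 0.05.

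The most uniform difference lay in the proteins of the cytosolic ribosome, the particle that translates nuclear messengers. Of the 60 mouse probes tested (59 genes), 57 were higher in the high group, 53 of them at an unadjusted p under 0.05 and none lower at that p, beside 4.17% and 3.8% of all mouse probes. All 3 high horses lay above all 3 low horses for 47 of the 53 probes with all 6 horses, beside 6.47% over all mouse probes. The median difference was 1.16, a 2.24-fold higher ratio, with a median standard error of 0.22. This list was picked after its values had been seen, so its counts are a description and carry no test. The median over the 60 probes was 0.38 in horse 12, 0.29 in horse 32 and 0.53 in horse 44, against -0.64 in horse 38, -0.59 in horse 42 and -0.93 in horse 54. The high horses were thus above the control pool and the low horses below it. In the single horses, 53, 55 and 50 of 60 probes were above the pool in horses 12, 32 and 44, against 7 of 53 in horse 38 and 8 and 5 of 60 in horses 42 and 54.

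Over the 6 horses, the lowest adjusted p of these probes was 0.073 and their median adjusted p 0.193. With the replicate block, 35 of the 60 passed, all of them higher in the high group, and they made up 35 of the 55 mouse probes called higher. The median difference was 1.07 where the PSSM sample carried Cy3 and 1.19 where it carried Cy5, 1.17 without horses 12 and 32, 0.98 between males (horses 12 and 32 against horse 38) and 1.21 between females (horse 44 against horses 42 and 54). It stayed between 0.94 and 1.22 under every alternative run.

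**Figure D2:**
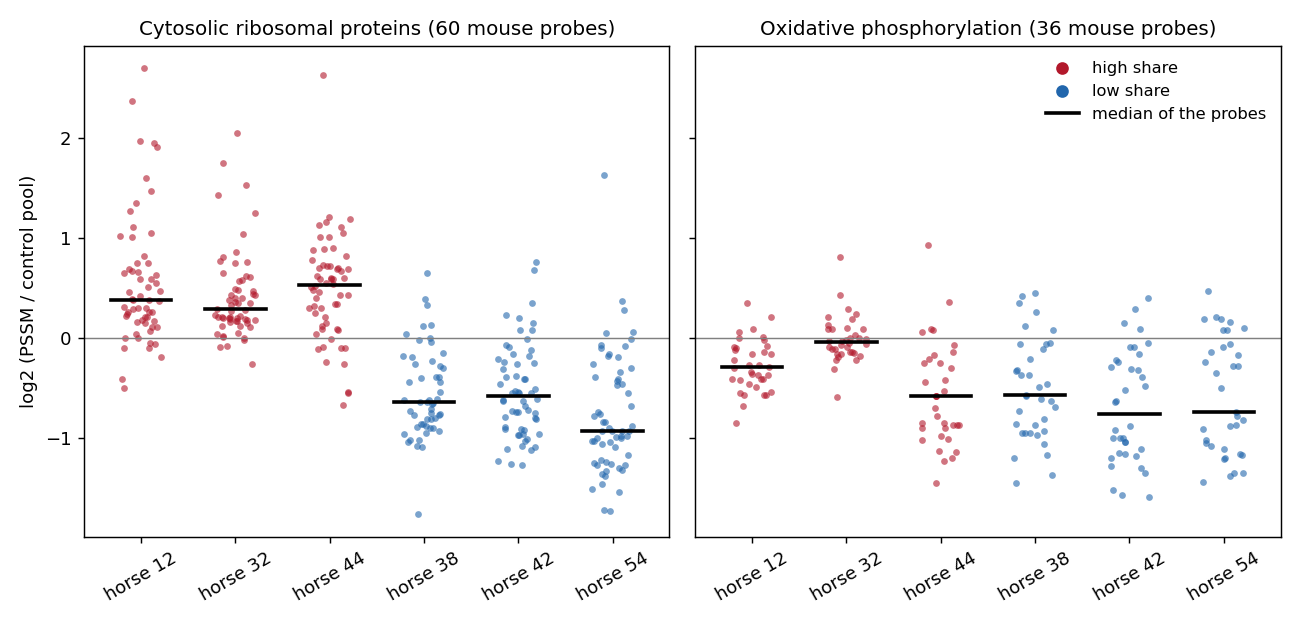
Log2 ratio of PSSM muscle to control pool for each tested mouse probe of the cytosolic ribosomal proteins (left, 60 probes) and of oxidative phosphorylation (right, 36 probes) in each horse. Each point is a probe (mean of the 2 microarrays), red for the high group and blue for the low group, the black line is the median of the probes, and points are spread sideways for view. The ribosomal medians lie above 0 in the 3 high horses and below 0 in the 3 low horses, while all 6 medians of oxidative phosphorylation are below 0.

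Rps15a, a protein of the small subunit, had the largest ribosomal difference: it was at 1.96, 1.53 and 0.43 in horses 12, 32 and 44, against -1.10, -0.63 and -0.93 in horses 38, 42 and 54, a difference of 2.19 ± 0.37 (SE, adjusted p = 0.126, and 0.0106 with the replicate block). Rps13, another small subunit protein, was at 1.27, 0.62 and 0.60 in the high horses and at -1.02, -0.79 and -1.17 in the low horses, with a difference of 1.82 ± 0.23 (adjusted p = 0.073, and 0.0017 with the replicate block). For both genes the high horses were above the pool and the low horses below it, without overlap. Rps24 was at 0.82, 0.35 and 1.05 in the high and at -0.77, -0.75 and -1.54 in the low horses, a difference of 1.76 ± 0.28 (adjusted p = 0.103, and 0.0035 with the replicate block). Among proteins of the large subunit, Rpl39 was at 0.75, 0.57 and 0.32 in the high and at -0.91, -0.97 and -0.75 in the low horses, a difference of 1.42 ± 0.17 (adjusted p = 0.073, and 0.0015 with the replicate block). Rpl39 was one of 11 ribosomal genes named after their values had been seen. The other 10 (Rpl17, Rpl23a, Rpl26, Rpl30, Rpl34, Rpl35a, Rps16, Rps19, Rps20 and Rps27) were 1.09 to 1.41 higher in the high group, with standard errors of 0.15 to 0.20. Ribosomal protein genes have many near-identical pseudogene copies, which a probe cannot tell from the gene.

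Only 3 of the 60 ribosomal probes were below 0. Rpl3l, a form of Rpl3 found in skeletal and heart muscle, was -0.44 ± 0.23, Rps26 was -0.40 ± 0.34, and Rpl13a was also below 0. Rps26 was at 0.65, 0.44 and -0.67 in the high and at 0.65, 0.68 and 0.28 in the low horses, so that it parted horse 44 from the rest and not the groups. By the position in the transcript that a mouse probe's identifier gives, among probes up to position 250 the median was 1.17 for 18 ribosomal and -0.00 for 310 other probes, and at positions above 250 and up to 500 it was 1.19 for 27 ribosomal and 0.03 for 526 other probes. The equine set held 1 cytosolic ribosomal gene, Rpl23 of the large subunit. It was at -0.00, 0.04 and 0.08 in horses 12, 32 and 44, against -0.84, -1.12 and -1.37 in horses 38, 42 and 54. The high horses were level with the control pool and the low horses were below it, by 1.15 ± 0.20 between the groups (adjusted p = 0.098). With the replicate block, Rpl23 passed (adjusted p = 0.0065) and was 1 of the 2 equine probes called.

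Proteins of the separate mitochondrial ribosome differed less. Of 34 equine probes tested, 26 were higher in the high group and the median difference was 0.19 (0.12 without horse 32 and without horse 54), beside 62.6% and 0.10 over all equine probes. At an unadjusted p under 0.05, 2 of the 34 were higher and 0 lower, beside 6.59% and 3.59% of all equine probes. Mrpl22 was at 0.09, 0.11 and 0.25 in the high and -0.52, -0.54 and -0.23 in the low horses (difference 0.58 ± 0.18). Mrpl13 was at 0.20, 0.22 and 0.44 in the high and -0.28, -0.16 and -0.36 in the low horses (0.55 ± 0.18). Both are proteins of the large mitochondrial subunit, and for both the groups did not overlap. All 3 high horses lay above all 3 low horses for 6 of the 34 probes, beside 10% over all equine probes. The lowest members were Mrps27 at -0.55 and Mrpl15 at -0.29. Of the 25 mouse probes of the mitochondrial ribosome, 17 were above 0, with a median of 0.11 (0.06 without horse 32). Mrps21 was 0.78 higher and Mrpl12 1.18 lower in the high group, Mrpl12 at 0.16, 0.01 and -0.72 in the high and 0.22, 1.67 and 1.10 in the low horses.

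Glycolytic enzymes were lower in the high group on the equine probes. Of the 9 probes of the pathway, 7 were below 0, 4 of them at an unadjusted p under 0.05, beside 3.59% of all equine probes. All 3 high horses were below all 3 low horses for 5 of the 9, beside 6.69% over all equine probes. The median difference was -0.67, and ranged from -0.94 to -0.45 under the alternatives. The per-horse medians were -0.59, 0.14 and -0.03 in horses 12, 32 and 44, against 0.94, 0.77 and 0.05 in horses 38, 42 and 54. Horses 38 and 42 were therefore above the control pool, and horse 12 was below it.

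LDHA, which turns pyruvate into lactate, was at -0.73, 0.44 and 0.10 in the high and at 1.15, 1.23 and 0.72 in the low horses, a difference of -1.10 ± 0.33 (adjusted p = 0.359). PGK1, which makes ATP midway through the pathway, was at -0.62, 0.48 and -0.10 in the high and at 0.94, 1.02 and 0.57 in the low horses (-0.92 ± 0.30). The same order, with horse 12 lowest and horse 32 highest of the high group, held for GPI, the isomerase of glucose 6-phosphate (-0.86 ± 0.31), and for PFKM, the muscle form of phosphofructokinase, the main control point of the pathway (-0.76 ± 0.33). PFKM was at -0.59, 0.61 and -0.15 in the high horses and at 0.97, 0.77 and 0.40 in the low horses, so that horse 32 lay within the low group. Aldoa, the muscle aldolase, was below the pool in all 3 high horses (-0.56, -0.08 and -0.03) and above it in all 3 low horses (0.41, 0.87 and 0.05), a difference of -0.67 ± 0.27. Pkm2, for a pyruvate kinase, was -0.58 ± 0.47 and Bpgm, which makes 2,3-bisphosphoglycerate, -0.27 ± 0.20. The members above 0 were Eno1, the enolase found in most tissues, at 0.16 ± 0.42, and HK2, the hexokinase of muscle and fat, at 0.32 ± 0.39.

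**Figure D3:**
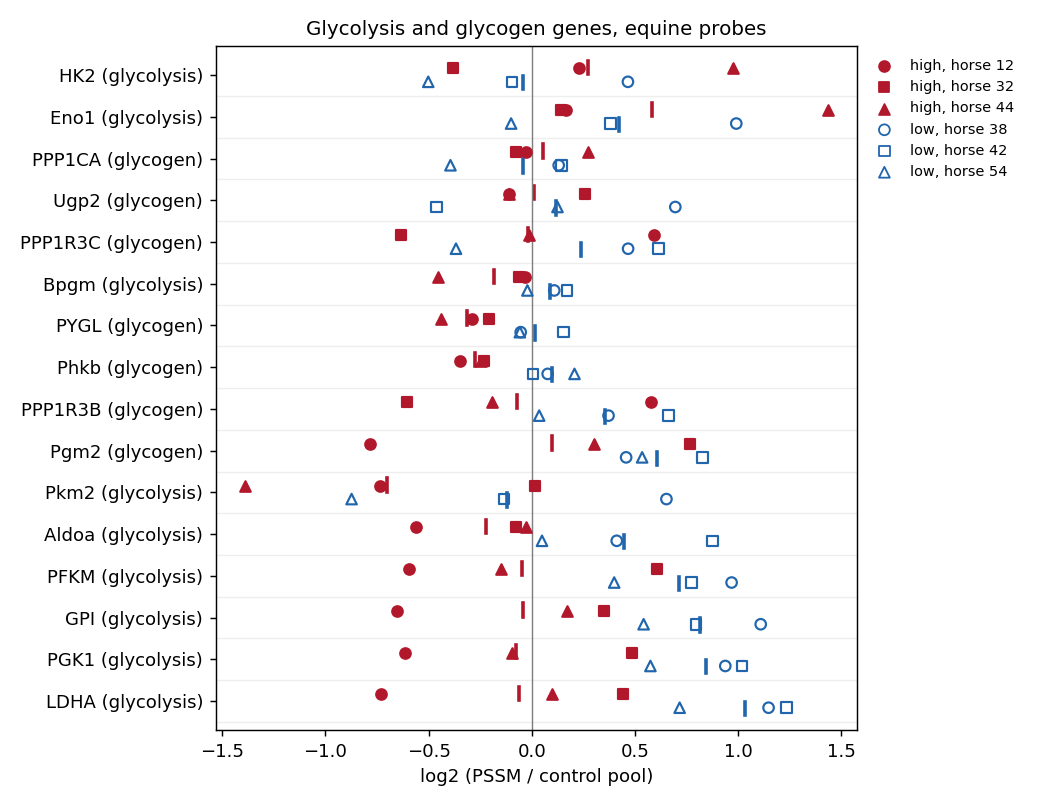
Log2 ratio of PSSM muscle to control pool of the 16 tested equine probes of glycolysis and of glycogen metabolism (rows, ordered by the difference) in each horse. Filled red symbols are the high group, open blue symbols the low group, and vertical ticks the group means. In the lowest rows (LDHA, PGK1 and GPI), all low horses lie to the right of all high horses, between 0.54 and 1.23.

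The mouse probes did not repeat the shift of glycolysis as a list. Of 14 probes, 8 were above 0 and the median was 0.11, below 0 when horse 32, 44 or 54 was left out. Single members were lower in the high group on both sets, namely Pgk1 (-0.73 ± 0.34 on the mouse probe) and Aldoa (-0.31 ± 0.19), and Eno3, the muscle enolase, was at -0.72, 0.39 and -0.14 in the high and at 0.65, 0.99 and 0.25 in the low horses (-0.79 ± 0.31). The mouse probes of Ldha (0.10 ± 0.15) and Pfkm (0.33 ± 0.28) were above 0, opposite in sign to the equine probes of those genes.

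Genes of glycogen metabolism differed little. Of the 7 equine probes tested, 6 were below 0 in the high group, none at an unadjusted p under 0.05, and the median difference was -0.33. Phkb, the beta subunit of phosphorylase kinase, was at -0.35, -0.23 and -0.24 in horses 12, 32 and 44, against 0.08, 0.01 and 0.21 in horses 38, 42 and 54 (-0.37 ± 0.17, adjusted p = 0.512). PYGL, the phosphorylase best known from liver, was at -0.29, -0.21 and -0.44 in the high and at -0.05, 0.15 and -0.06 in the low horses (-0.33 ± 0.18). These were the 2 of 7 glycogen probes whose groups did not overlap, both lower in the high group, beside 6.69% over all equine probes. Pgm2, a phosphoglucomutase, was -0.51 ± 0.38. PPP1R3B and PPP1R3C, which bring protein phosphatase 1 to glycogen, were -0.43 ± 0.33 and -0.26 ± 0.38, Ugp2, which makes UDP-glucose, was -0.11 ± 0.31, and PPP1CA, the catalytic subunit of the phosphatase, was 0.10 ± 0.23. The equine probe of GSK3B, the kinase that inhibits glycogen synthase, had too few values to be tested.

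On the mouse probes, 10 of 19 glycogen probes were above 0 and the median difference was 0.07 (between -0.04 and 0.04 with any 1 horse left out, and below 0 without horse 44 or horse 54). The probe of Gys1, the gene mutated in these horses, was at -0.08, -0.03 and 0.06 in the high and at 0.31, 0.19 and -0.06 in the low horses, a difference of -0.16 ± 0.16 with overlapping groups. Pygm, the muscle phosphorylase, was -0.16 ± 0.17, and the 3 probes of Gsk3b were -0.06, 0.20 and 0.24. The mouse probe of Ugp2 stood out from these: it was at -0.02, 0.02 and -0.25 in the high horses, near the control pool, and at 0.84, 0.66 and 0.60 in the low horses, above it. Its difference was -0.78 ± 0.16 (adjusted p = 0.234, and 0.061 with the replicate block), while the equine probe of the same gene overlapped between the groups. Ppp1r3a, the glycogen-targeting subunit of muscle, was 0.53 ± 0.28 and Pgm5, a protein related to phosphoglucomutase that sits at muscle adhesion sites, was -0.39 ± 0.16.

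In the mitochondria, several subunits of the ATP synthase were higher in the high group on the equine probes. Of 13 nuclear genes of the enzyme and its assembly, 9 were above 0, beside 62.6% of all equine probes. At an unadjusted p under 0.05, 6 were higher, beside 6.59%. For these same 6 the groups did not overlap, beside 10% of the equine probes with all 6 horses. Both counts come from the same values, so the second adds no separate support. Atp5l, a subunit of the membrane part, was at -0.22, -0.16 and -0.47 in horses 12, 32 and 44, against -0.77, -1.42 and -1.29 in horses 38, 42 and 54 (0.88 ± 0.23, adjusted p = 0.297, and 0.0985 with the replicate block). All 6 horses were below the control pool, and the low horses were further below it. Atp5j, part of the stalk, was at -0.52, 0.70 and -0.62 in the high and at -1.03, -1.28 and -0.996 in the low horses (0.96 ± 0.36). The others were Atp5e (0.75 ± 0.27), Atp5g3 (0.68 ± 0.20), Atp5h (0.59 ± 0.23) and Atp5o (0.54 ± 0.20). Of the members below 0, Atp5b, the beta subunit, was at -0.32, -0.17 and -0.16 in the high and at 0.49, 0.01 and 0.05 in the low horses (-0.40 ± 0.21), without overlap, and Atp5a1, the alpha subunit, was -0.30 ± 0.28 with overlapping groups. The median of the list was 0.25, 0.44 without horse 38, 0.09 without horse 54 and 0.17 without horses 12 and 32.

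**Figure D4:**
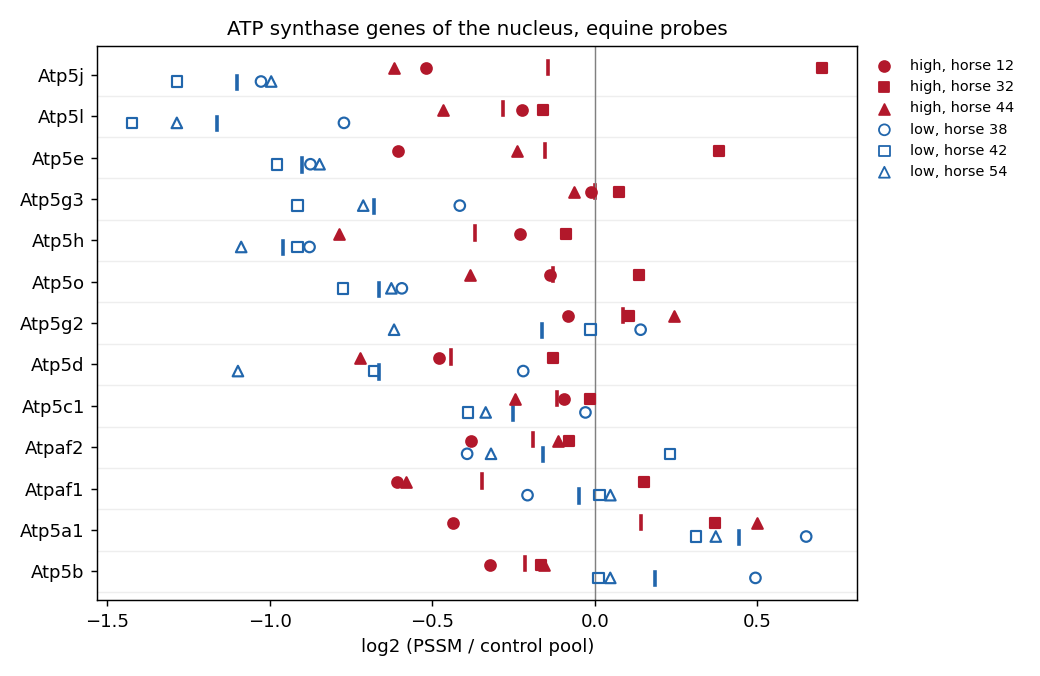
Log2 ratio of PSSM muscle to control pool of the 13 equine probes of nuclear ATP synthase genes and assembly factors (rows, ordered by the difference) in each horse. Filled red symbols are the high group, open blue symbols the low group, and vertical ticks the group means. In the 6 upper rows every high horse lies to the right of every low horse, and in the lowest row, Atp5b, every high horse lies to the left.

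The mouse probes of oxidative phosphorylation, the respiratory chain and ATP synthase together, had the same mixture. Of 36 probes, 26 were above 0, 14 of them at an unadjusted p under 0.05 and 2 below 0 at that p, beside 50.5%, 4.17% and 3.8% of all mouse probes, with a median difference of 0.46. Per-horse medians were -0.29, -0.04 and -0.59 in horses 12, 32 and 44, against -0.58, -0.76 and -0.74 in horses 38, 42 and 54. All 6 were below the pool, and horse 44 was close to the low group. Without horses 12 and 32, the median difference was 0.06. It was 0.20 without horse 32 alone and 0.38 without horse 54 alone. Cox8a of complex IV was at -0.49, -0.59 and 0.09 in the high and at -1.21, -1.20 and -1.17 in the low horses (0.86 ± 0.21, adjusted p = 0.344), and Cox5a of the same complex was at 0.01, 0.10 and -1.20 in the high and at -1.18, -1.52 and -1.08 in the low horses (0.90 ± 0.35), with horse 44 among the low horses. Ndufs4 and Ndufb3 of complex I were 0.87 ± 0.31 and 1.21 ± 0.22, Ndufb3 with 4 horses. The 2 lower members were Uqcrc1, a core protein of complex III, at -0.38, -0.03 and -0.25 in the high and at 0.45, 0.40 and 0.08 in the low horses (-0.53 ± 0.18), and Ndufs1, the largest subunit of complex I, at -0.52 ± 0.22. Tomm7, a part of the pore that imports proteins, was higher in the high group on both sets (0.58 ± 0.23 on the equine and 0.80 ± 0.29 on the mouse probe), and Atp5g3 likewise (0.66 ± 0.19 on the mouse probe).

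Transcripts of the mitochondrial genome moved in no single direction. Of 26 equine probes of mitochondrially encoded subunits, 17 were above 0 with a median of 0.17 (0.01 without horse 12, 0.09 without horse 54 and 0.26 without horse 32), and the highest were the 2 probes of COX_2, a subunit of complex IV, at 0.63 ± 0.22 and 0.61 ± 0.22. One COX_2 probe was at 0.25, -0.29 and -0.05 in the high and at -0.56, -0.52 and -0.88 in the low horses, and the other at 0.02, -0.53 and -0.54 in the high and at -0.92, -0.88 and -1.09 in the low horses. Neither overlapped between the groups. Of the 26 probes, 3 had all 3 high horses above all 3 low horses, beside 10% over all equine probes. At an unadjusted p under 0.05, 2 of the 26 were higher, beside 6.59%. Among the 24 probes of mitochondrial tRNA and rRNA, 17 were above 0. The glycine tRNA was at 0.01, 0.17 and -1.01 in the high and at -1.48, -1.70 and -0.99 in the low horses (1.11 ± 0.35, adjusted p = 0.359), with horse 44 beside horse 54. The threonine and proline tRNAs were 0.96 ± 0.46 and 0.82 ± 0.35, and the histidine tRNA was -1.004 ± 0.33, at -0.71, -0.85 and -0.59 in the high and -0.49, 0.61 and 0.74 in the low horses. The list's median was 0.15 (0.02 without horse 12, 0.26 without horse 32, 0.23 without horse 44 and 0.37 without horse 54), and turned to -0.20 without horse 38, which had the lowest tRNA and rRNA median of the 6 (-1.32).

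Enzymes of the citric acid cycle and of fatty acid oxidation had a median difference of 0.02 on 11 equine and of -0.18 on 11 mouse probes (-0.10 without horse 42 and -0.08 without horse 54). Mdh2, the mitochondrial malate dehydrogenase, was at -0.26, -0.80 and -0.28 in the high and at 0.27, 0.23 and -0.18 in the low horses (-0.55 ± 0.24), and Idh2, an isocitrate dehydrogenase, was -0.32 ± 0.19, both without overlap. Acads, which starts the oxidation of short fatty acids, was 0.55 ± 0.19 on its mouse probe, at 0.14, -0.10 and -0.40 in the high and at -0.61, -0.56 and -0.83 in the low horses.

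Antioxidant genes were higher in the high group. Of 9 equine probes of antioxidant and chaperone genes, 7 were above 0 and 4 were so at an unadjusted p under 0.05, beside 62.6% and 6.59% of all equine probes. Their median difference was 0.61 (0.92 without horse 12, and 0.45 to 1.07 under the alternatives). GSTO1, a glutathione transferase that the study also counted among its inflammation genes, was at 1.55, 1.20 and 1.72 in horses 12, 32 and 44, against -0.20 and -0.08 in horses 42 and 54, horse 38 having no complete pair. The high horses were well above the control pool and the low horses near it. The difference was 1.63 ± 0.24 (adjusted p = 0.098), and with the replicate block it was 1.48 and passed (adjusted p = 0.0065). The mouse probe of Gsto1 ran against this, at -0.40, 0.09 and -0.40 in the high and at -0.05, 0.12 and 0.08 in the low horses (-0.29 ± 0.19).

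MT2A, a metallothionein that binds zinc and copper, was at 0.49, -0.10 and 1.33 in the high and at -0.42, -0.99 and -0.97 in the low horses (1.36 ± 0.37, adjusted p = 0.297, and 0.0756 with the replicate block). TXN, thioredoxin, was at 0.60, -0.01 and 1.01 in the high and at -0.27, -0.96 and -0.57 in the low horses (1.14 ± 0.31). Sod2, the superoxide dismutase of mitochondria, was at -0.03, 0.11 and 0.38 in the high and at -0.57, -0.90 and -1.003 in the low horses (0.97 ± 0.21, adjusted p = 0.197). In these 3 genes, of 7 antioxidant and chaperone probes with all 6 horses, the groups did not overlap, beside 10% over all equine probes. The low horses were below the control pool in all 3. PRDX1, a peroxiredoxin, was 0.61 ± 0.34, CAT, catalase, 0.50 ± 0.31 and HSPA5, a chaperone of the endoplasmic reticulum, 0.28 ± 0.38, while NQO1 and PRDX6 were at -0.01 and -0.07.

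All 10 mouse probes tested of heat shock and endoplasmic reticulum stress were above 0, with a median of 0.66, beside 50.5% above 0 over all mouse probes. Of these 10, 2 were higher at an unadjusted p under 0.05, beside 4.17%, and 6 had all 6 horses. The median was 0.02 between males (7 probes) and 1.22 between females (horse 44 against horses 42 and 54). It ranged from 0.38 to 1.24 under the alternatives, and was highest without horses 12 and 32. Cryab, a small heat shock protein abundant in muscle, was at 1.05, 0.05 and 1.53 in the high and at -0.20, -1.26 and -0.97 in the low horses (1.69 ± 0.41, adjusted p = 0.358, and 0.037 with the replicate block, where it passed). Hspb1, another small heat shock protein, was at 0.12, 0.60 and 1.93 in the high and at 0.68, -0.40 and -0.67 in the low horses (1.01 ± 0.51). The largest value, 3.37 ± 1.04 for Hspa8, rested on horse 54 at -3.82, with horse 42 at -0.07 and the high horses at 2.20, 1.55 and 0.53. Atf4 (2.04 ± 1.05) likewise rested on horse 54, at -3.66, and for both genes a microarray of that horse stood at the end of the range of the deposited values. The 18 mouse probes tested of the list of muscle atrophy and the proteasome were all for subunits of the proteasome, which degrades tagged proteins. Of these, 10 were above 0 and 5 were so at an unadjusted p under 0.05, beside 50.5% and 4.17% of all mouse probes: Psmb3 (0.76 ± 0.15), Psmb4 (0.60 ± 0.25), Psma2 (0.57 ± 0.17), Psmb2 (0.54 ± 0.16) and Psma6 (0.46 ± 0.19). Psmb3 was at 0.28, 0.50 and 0.26 in the high and at -0.37, -0.47 and -0.41 in the low horses (adjusted p = 0.216, and 0.0501 with the replicate block). The other 8 were below 0, the lowest being Psmc3 (-0.55 ± 0.47) and Psmd4 (-0.15 ± 0.22). The median of that list was 0.13, and was 0.24 without horse 12, 0.26 without horse 32, 0.21 without horse 38 and 0.01 without horse 54.

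Genes of slow fibers, which contract slowly and burn fuel with oxygen, were higher in the high group in mean, with little difference among the females. All 7 mouse probes tested were above 0 and 3 were so at an unadjusted p under 0.05, beside 50.5% and 4.17% of all mouse probes, with a median of 0.85. Tnnc1, the troponin C of slow fibers, was at 1.01, 0.48 and -0.07 in the high and at -2.10, -0.68 and -0.51 in the low horses (1.57 ± 0.45, adjusted p = 0.467, and 0.0843 with the replicate block). Myl2, a slow myosin light chain, was at 0.80, 0.07 and 0.00 in the high and at -2.27, -0.74 and -0.20 in the low horses (1.36 ± 0.51). Casq2, a calcium store protein of slow and heart muscle, was 0.96 ± 0.35, Myl3 0.85 ± 0.45 and Myh7, the slow myosin heavy chain, 0.82 ± 0.54. Horses 12 and 38 lay farthest apart: the list's median was 1.01 in horse 12 and -1.60 in horse 38, against 0.30 and -0.07 in the other high horses and -0.05 and 0.09 in the other low horses. The median difference was 0.54 without horse 12, 0.41 without horse 38 and 0.25 without horses 12 and 32. It was 2.23 between males (horses 12 and 32 against horse 38, 6 probes) and 0.08 between females (horse 44 against horses 42 and 54).

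Genes of fast fibers had a median difference of 0.00 over 6 mouse probes. Actn3, the alpha-actinin of fast fibers, was at -0.80, 0.23 and -0.71 in the high and at 0.33, 0.61 and -0.02 in the low horses (-0.74 ± 0.31), and Casq1, the fast calsequestrin, was -0.55 ± 0.23. Ckm, the muscle creatine kinase, was -0.61 ± 0.38 on the mouse probe and 0.25 ± 0.22 on the equine probe of CKM. Among equine probes of fiber structure and excitation, 8 of 14 were above 0 with a median of 0.08 (-0.07 without horse 12, and between 0.03 and 0.12 with any other horse left out). RYR1, the calcium release channel, was at -1.38, -1.03 and 0.38 in the high and at -0.38, 0.69 and 0.44 in the low horses (-0.93 ± 0.49), TPM1, a tropomyosin, was -0.65 ± 0.29, and ACTN2, the alpha-actinin of all fibers, was 0.54 ± 0.21, at 0.42, 0.65 and 0.91 in the high and 0.31, 0.02 and 0.04 in the low horses. The mouse probe of Actn2 was 0.24 ± 0.26. Tnnt2, a troponin of heart and immature skeletal muscle, was at 1.72, 0.61 and 1.65 in the high horses and at -0.13 and -0.20 in horses 38 and 42 (1.49 ± 0.35, adjusted p = 0.37), and Cdh15, a cadherin of muscle precursor cells, was -0.46 ± 0.18. The 10 mouse probes of muscle regeneration had a median difference of 0.01, and of 0.58 without horses 12 and 32. Their per-horse median was 1.02 in horse 44 and between 0.08 and 0.34 in the others. All 6 equine probes of muscle growth and regeneration were above 0, beside 62.6% of all equine probes, and none had an unadjusted p under 0.05. Their median difference was 0.21, and 0.00 without horse 44.

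The inflammation genes that the study chose on these samples were higher in the high group in mean, but not horse by horse. The study picked them as up-regulated against the control pool in PSSM muscles that included these 6 horses. Values of the high horses entered that choice, so the counts set beside all equine probes carry no test. All 11 tested of 13 were above 0 with a median of 0.77, beside 62.6% and 0.10 over all equine probes, and 1 (GSTO1) was so at an unadjusted p under 0.05, beside 6.59%. Of the 7 with all 6 horses, none had groups without overlap, while GSTO1, without a value in horse 38, parted the other 5 horses. IL18 and CXCR4 had too few values. The per-horse medians were 1.18, 0.11 and 2.41 in horses 12, 32 and 44, against 0.71, 0.61 and 0.01 in horses 38, 42 and 54. Horse 32, of the high group, was thus below horses 38 and 42, and horse 44, the homozygous one and the one with severe necrosis, was far above all others. The median turned to -0.11 without horse 44, and was 1.495 without horse 32, 0.39 without horse 54 and 1.91 without horses 12 and 32.

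CTSS, cathepsin S, a protease of phagocytes, was at 1.62, -0.20 and 5.18 in the high and at 1.28, 0.87 and 0.34 in the low horses (1.37 ± 1.18, adjusted p = 0.701). LUM, lumican, a proteoglycan of collagen fibrils, was at 1.59, 0.06 and 4.30 in the high and at 1.72, 1.91 and 0.01 in the low horses (0.77 ± 1.02). CD44, a receptor for hyaluronan on leukocytes and other cells, was at 1.55, 0.46 and 3.35 in the high and at 0.58 and 0.61 in horses 38 and 42 (1.19 ± 0.77). In all 3 genes the groups overlapped and horse 44 was highest. FN1, fibronectin, had the same order (0.68 ± 0.94), as did CD69, an early activation marker of lymphocytes, at 1.18, -0.12 and 2.50 in the high and 0.43, -0.07 and -0.29 in the low horses (1.17 ± 0.60). VCAM1, an adhesion molecule of activated endothelium, was 0.83 ± 0.47, LTF, lactoferrin of neutrophils, 0.37 ± 0.61, and the integrins ITGB2 and ITGB1 0.30 ± 0.47 and 0.13 ± 0.33. CTSS alone passed when horse 44 was set against the low group without horses 12 and 32 (4.35 ± 0.40, adjusted p = 0.0429), a fit in which the lone horse is assumed to vary like the low group.

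**Figure D5:**
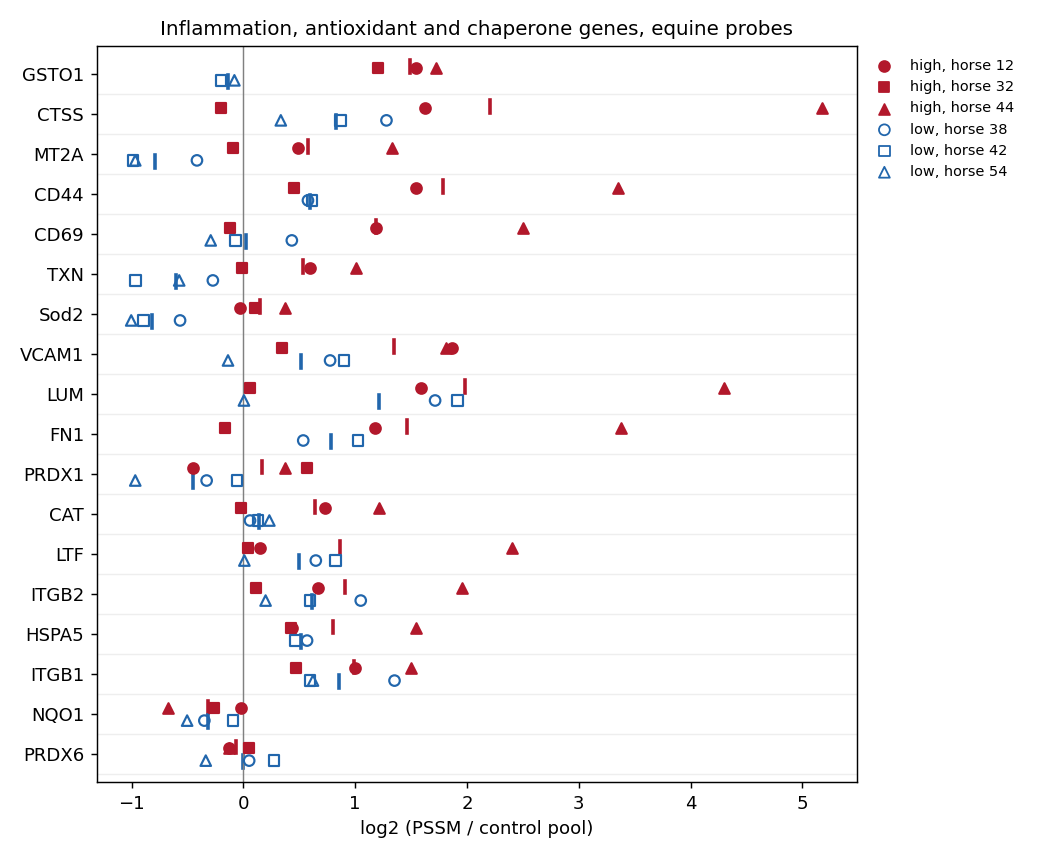
Log2 ratio of PSSM muscle to control pool of the equine probes of the study's inflammation genes and of antioxidant and chaperone genes (rows, ordered by the difference) in each horse. Filled red symbols are the high group, open blue symbols the low group, and vertical ticks the group means. Horse 44 (red triangle) lies far to the right for CTSS (5.18), LUM (4.30), FN1 (3.38) and CD44 (3.35), while GSTO1, MT2A, TXN and Sod2 part all high from all low horses with a value.

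Of the lists of cell types other than muscle fibers, some also had their highest median in horse 44. Over 14 equine probes of macrophages and phagocytes, 10 were above 0 with a median of 0.16 (-0.05 without horse 44, 0.09 without horse 54, 0.29 without horse 32 and 0.33 without horse 12), and the per-horse median was 0.64 in horse 44 and between -0.05 and 0.00 in the other 5 horses. Over 16 mouse probes of fibroblasts and extracellular matrix, 13 were above 0 with a median of 0.20 (-0.01 without horse 44 and 0.34 without horse 32), and horse 44 was at 0.69 and the others between -0.14 and 0.30. Dcn, decorin, a fibroblast proteoglycan, was at 1.22, -0.09 and 3.38 in the high and at 0.64, 1.03 and -0.48 in the low horses (1.11 ± 0.81), and Vim, vimentin of connective tissue cells, had the same order of high horses (1.02, -0.45 and 3.16). The part of these cells in the differences given above was not tested. The equine lymphocyte list, of 5 probes tested, did not part horse 44 from the others, at -0.69, -0.23 and -0.68 in the high and at 0.43, -0.44 and -0.49 in the low horses. The mouse lists of macrophages, lymphocytes, adipocytes and endothelium had medians from -0.04 to 0.13.

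A few equine genes outside these groups were among the most different. LEPR, the leptin receptor, was at -0.75, 0.01 and -0.54 in the high and at 0.68, 0.73 and 0.54 in the low horses (-1.07 ± 0.24, adjusted p = 0.197). It was the second lowest equine probe with all 6 horses, and its groups did not overlap, though the mouse probe of Lepr was at 0.31 ± 0.20. TREM1, a receptor that amplifies inflammation in myeloid cells, was at -0.80, 0.08 and -0.42 in the high and at 0.43, 0.32 and 0.54 in the low horses (-0.81 ± 0.25). MMP13, a collagenase, PTPN1, a phosphatase that dampens insulin and leptin signaling, and TNFRSF13B, a B cell receptor, were -0.85 ± 0.32, -0.77 ± 0.39 and -0.74 ± 0.32. ANXA6, an annexin that binds membranes in repair, was at -1.36, -0.75 and -0.59 in the high horses and at 0.87 and 0.30 in horses 42 and 54 (-1.49 ± 0.32, adjusted p = 0.2), and was named after its values had been seen. CLU, clusterin, a secreted chaperone, was 0.98 ± 0.58 on the equine and 1.20 ± 0.29 on the mouse probe, where it passed with the replicate block (1.28, adjusted p = 0.0287). Clic4, a chloride channel protein, was 0.84 ± 0.52 on the equine and 0.86 ± 0.20 on the mouse probe.

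Among mouse probes with a gene symbol and all 6 horses, Kbtbd8, an adaptor of a ubiquitin ligase, was at -1.30, -0.37 and -1.49 in horses 12, 32 and 44, against 0.34, 0.45 and 0.85 in horses 38, 42 and 54 (-1.60 ± 0.31, adjusted p = 0.188). It passed with the replicate block (adjusted p = 0.0073). Lgals1, galectin 1, which is made by many cells including regenerating muscle, was at 0.86, 0.18 and 1.74 in the high and at -0.38, -0.62 and -1.54 in the low horses (1.77 ± 0.44, adjusted p = 0.358). Alb and Ahsg, which encode the plasma proteins albumin and fetuin-A of the liver, were far below the pool in all horses and less so in the high group. Alb was at -3.39, -2.16 and -4.11 in the high and at -4.93, -4.80 and -5.23 in the low horses (1.77 ± 0.44, adjusted p = 0.37, and 0.0482 with the replicate block), and Ahsg was 1.78 ± 0.42. Tmsb4x, thymosin beta 4, which binds actin, was at 0.92, -0.37 and 2.62 in the high and at -0.50, -0.21 and -1.16 in the low horses (1.68 ± 0.67), highest in horse 44. Pnma2, Racgap1 and Rhbdl2 were among the lowest differences (-1.62, -1.45 and -1.43), but were high in horses 42 and 54 alone, from 1.67 to 2.50, and below the pool in horse 38 and in all high horses.

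For 109 genes both an equine and a mouse probe were tested, in 115 pairs. The differences had the same sign in 66 pairs (57.4%) and correlated at 0.29 across the pairs, which share the RNA and the microarrays. Of the 11 pairs whose equine probe was at an unadjusted p under 0.05, 6 had the same sign. Over the equine probes, the horses of the high group correlated with each other at 0.27 to 0.61, those of the low group at 0.58 to 0.78, and horses of different groups at 0.31 to 0.64, so that the high group was the more mixed.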

How the data were processed

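Muscle RNA from each PSSM horse and the pooled control RNA were amplified, labelled with Cy3 or Cy5 and hybridized to spotted oligonucleotide microarrays. The authors quantified the scans with GenePix Pro, normalized by Lowess in GeneSpring, and deposited 1 value per probe and microarray, the natural log (ln) of the Cy5 over Cy3 ratio. The log base and direction are not stated and were taken from the values, which end at the ln of 0.01 and of 100, and from the labelled dyes. The background correction and the rule behind empty cells are not given in the sources used here. Signals and depth are not in the values, so that precision rests on the number of horses. Values were divided by ln 2, turned to PSSM over control pool and averaged over the complete dye-swap pair of each horse, and limma (version 3.58.1, in R 4.3.3, with statmod 1.5.0) was fitted to the 6 horse means, separately for equine and mouse probes, with at least 2 horses per group and Benjamini-Hochberg adjustment. Summaries and plots used Python 3.11.15, numpy 2.4.6, pandas 2.3.3 and matplotlib 3.10.9. Gene symbols of mouse probes came from the platform annotation, and probes with several symbols or none were not named.

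Microarrays with the same replicate number deviated from their group means together (18 pairs, correlations of 0.22 to 0.66). Those with different numbers did not (18 pairs, -0.72 to -0.16). Deviations from a group mean cancel within the group, so the negative values follow from the positive ones and are no separate observation. The number stands for the dye orientation, and a fit with this block is given where it changes a call. The test was checked on simulated data at these sizes: among 334 equine probes it found 21 of 33 differences of 1 (log2) and 30 of 33 of 2, with 0 false calls, and among 8323 mouse probes 54 of 100 and 88 of 100, with 4 false calls. A Student t-test of the high against the low horses was run as an alternative. Other settings covered pairs, horses per probe, centring, dye, block, robust fit, joint fit, averaging and low signals. Further settings covered sex, age, other groupings and leaving out each horse, and 2 were added after the data were seen. The named probes are the 12 highest and 12 lowest equine and the 10 highest and 10 lowest mouse differences among probes with all 6 horses, all equine glycogen probes, the 2 extreme members of each list in each direction, the study's inflammation genes and the mouse probes of named equine genes. Members and lists were chosen with earlier results of these data known, and the 2 lists of ribosomal proteins after their values were seen. Horse 5 was left out of the comparison, and no sequence of a probe is shown.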

Additional observations from a re-analysis of the deposited data

Results flagged for a closer look

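For 28 probes named in the text, all 3 horses of the high group lay on one side of the control pool and all 3 horses of the low group on the other. Of the 177 probes named by the rule that had all 6 horses, 12 were so with the high group above and 6 with it below, and the other 10 are among the 11 ribosomal genes named after their values had been seen. Over all probes with 6 horses, 1.34% of equine and 1.76% of mouse probes had the high horses above the pool and the low horses below it, and 1.67% and 1.71% the reverse. The rule picks extreme differences, so a higher share among its probes comes with the choice and carries no test. Each difference between the groups (log2, high minus low) was tested with limma over the 6 horses, and none passed an adjusted p of 0.05. In 22 of them the high horses were above the pool: Rps15a (2.19), Rps13 (1.82), Rps24 (1.76), Rpl39 (1.42), Rpl26 (1.41), Rpl23a (1.40), Rps20 (1.40), Rpl35a (1.38), Rpl17 (1.37), Rpl30 (1.30), Rps27 (1.22), Rps16 (1.10), Rps19 (1.09), Lgals1 (1.77), Cryab (1.69), Myl2 (1.36), Pmp22 (1.10), Psmb3 (0.76), Mrpl14 (0.58) and Psap (0.55) on mouse probes, and Mrpl22 (0.58) and Mrpl13 (0.55) on equine probes. In 6 they were below it: Kbtbd8 (-1.60), Uqcrc1 (-0.53) and Pgm5 (-0.39) on mouse probes, and Aldoa (-0.67), Atp5b (-0.40) and Phkb (-0.37) on equine probes. The 13 ribosomal genes, Cryab and Kbtbd8 passed in the fit with the replicate block. Pmp22, a myelin protein that fibroblasts also express, was at 0.68, 0.01 and 1.73 in the high and at -0.35, -0.13 and -0.41 in the low horses, and Psap, which encodes the saposins of the lysosome, was at 0.66, 0.47 and 0.15 in the high and at -0.13, -0.09 and -0.13 in the low horses.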

How the results depend on the processing

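The count of equine probes past an adjusted p of 0.05 was 0 over the 6 horses, 2 with the replicate block (GSTO1 and Rpl23) and 1 without horses 12 and 32 (CTSS), and for the mouse probes it was 0 over the 6 horses, 60 with the replicate block (55 higher and 5 lower in the high group) and 14 among probes with a complete pair in all 6 horses (13 higher, 12 of them ribosomal, and 1 lower). Leaving out each horse in turn gave 0 to 0 equine and 0 to 3 mouse probes, the 3 (Pnma2, Racgap1 and Rhbdl2, all lower in the high group) without horse 38. Every other alternative gave 0 calls. The block fit assumed 1 correlation between the microarrays of a horse, 0.42 for equine and 0.242 for mouse probes, and the cause of its higher counts was not tested. A Student t-test of the high against the low horses was also run. At an unadjusted p under 0.05 it gave 19 equine probes higher and 11 lower and 279 mouse probes higher and 276 lower. It gave 0 after Benjamini-Hochberg. The study's own t-test asked another question, whether the mean ratio to the control pool differed from 1. Of 4929 values of the 212 named probes under the alternatives, 189, in 74 probes, changed sign, and 14 passed newly. No probe was called over the 6 horses, so there was no call that could turn round or be lost. Of 1027 list medians, 120, in 25 of 43 lists, changed sign, among them the inflammation genes without horse 44, but not the cytosolic ribosomal proteins, glycolysis on equine probes, antioxidant genes, slow fiber genes or oxidative phosphorylation. The fits without the Cy5 microarray of horse 54 and without horses 12 and 32 were chosen after seeing the data. With 3 horses a group, differences of 1 on the log2 scale were found in part only in simulated data.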

Other observations

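Horse 5, which has no value for the share of aggregate-containing fibers, had a median of 0.47 over the 60 ribosomal probes, -0.38 over the 9 equine glycolysis probes, 0.62 over the 9 antioxidant and chaperone probes, 1.25 over the 11 inflammation genes of the study and -0.08 over the 36 probes of oxidative phosphorylation.

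A set of 9 mouse probes, found after their values had been seen, parted the 3 males (horses 12, 32 and 38) from the 3 females (horses 44, 42 and 54) by a gap of at least 1 on the log2 scale, 7 with the females above and 2 with the males above, and no equine probe did so. Adcy7, an adenylate cyclase, was at -2.94, -3.83 and -3.98 in the males, against -0.01, 1.01 and 0.98 in the females. Omg, a myelin glycoprotein, was at -3.40, -3.45 and -4.34 in the males, against 0.44, 0.93 and 1.10 in the females. Upk3b, a protein of the urinary tract lining, was at 1.45, 0.92 and 0.45 in the males, against -2.07, -1.76 and -1.96 in the females. Adcy7, Omg and Dhrs7b are among the 10 lowest differences between the high and low groups (-1.60, -1.36 and -1.47), and horse 44 was the lowest of the 3 females for each of them. No mouse probe with a symbol belonged to the list of sex-linked genes.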
